A study of Homo sapiens with 9 samples.

Results

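The 47 genes described here serve G2 phase, mitosis and cytokinesis, and were taken by symbol from the 16772 genes of the deposited expression table. All 47 were present, and all 47 passed the filter on low values (FPKM of 1 or more in 3 or more libraries). FPKM counts fragments scaled by transcript length and by mapped fragments, so it can be compared between genes. RNA was sequenced from DU145, an established human prostate carcinoma line labelled wild type, after 6 days with daily changes of medium. The groups were 20 µM H93, 500 nM SAHA, the histone deacetylase inhibitor vorinostat, and the solvent DMSO alone, in which both compounds were dissolved, in 3 libraries per group. Doses carry a lower-case m in the labels, taken here as molar. The series title names UHRF1, a protein that helps to copy DNA methylation at replication, as the target of H93, and both SAHA and DMSO serve as its controls. The labels do not say that the 3 libraries of a group came from separate cultures, so the p-values rest on a spread between libraries that may be technical.

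A dividing cell enters mitosis when cyclin B bound to the kinase CDK1 is activated by CDC25 phosphatases and PLK1. Chromosomes are compacted by condensin and topoisomerase II, attach to spindle microtubules through kinetochores, and are held back by the spindle checkpoint until all are attached. The anaphase-promoting complex (APC/C) with CDC20 then destroys securin and cyclin B, separase opens cohesin, and cytokinesis divides the cell. Most of the mRNAs involved are made in G2 under B-MYB, FOXM1 and the MuvB complex, and fall when cells leave the cycle.

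The epithelial keratins KRT8 and KRT18 lay between 653 and 737 FPKM in all libraries, while the leukocyte marker PTPRC stayed at or below 0.0179 FPKM. The summed FPKM of 5 epithelial markers was 1827 to 1864 in H93, 1751 to 1827 in SAHA and 1583 to 1623 in DMSO libraries, and that of 4 fibroblast markers 3.42 to 4.03 in H93, 3.35 to 5.42 in SAHA and 2.29 to 3.19 in DMSO libraries. The part of these shifts in the results was not tested. Endothelial and leukocyte markers each summed to at most 1.13 FPKM in any library. Absolute read depth was unknown. Steps in low FPKM values put the libraries between 0.875 and 1 of the deepest. Exons of 14 members overlap those of a gene on the opposite strand in GENCODE release 29 (NUF2, SPC24, NCAPD2, NCAPG, SMC4, CCNA2, ANLN, PRC1, RACGAP1, CDC25C, FOXM1, PLK1, HMMR and MAD2L1). The library kit keeps strand, but its use in counting is not given in the sources used here, so reads of these pairs may not be separated. CENPA, PRC1, NUSAP1 and BUB1B overlap a gene on the same strand, and 17 members have pseudogenes named after them, 7 for CKS1B and 5 for UBE2C, so their values are uncertain where the authors' counting could split reads.

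After H93 the mitotic genes were mostly lower than after DMSO, by small amounts. At adjusted p under 0.05 (limma, Benjamini-Hochberg over the 11525 genes that passed the filter), the threshold used throughout, 30 of the 47 members fell and 2, CDK1 and RACGAP1, rose. The background of that comparison was 35.0% of all genes lower and 34.9% higher, against 63.8% and 4.26% of the members. In either direction 68.1% of the members and 69.8% of all genes passed, so the members stood near the background in how many changed and away from it in direction. The H93 and DMSO libraries did not overlap for 30 members that were lower and 3 that were higher, with backgrounds of 36.8% and 36.4% (73.2% either way). The falls ran from 4.49% to 39.7% of the mean FPKM in DMSO cells, and no member passed a 2-fold call, which 2.28% of all genes did. CDC25B, a phosphatase that activates CDK1, fell by 39.7%, CENPF, a kinetochore protein, by 26.8%, CCNB1 (cyclin B1) by 26.3%, CENPA, the centromeric histone H3, by 23.5% and ECT2, which activates RhoA in cytokinesis, by 22.4%. The median log2 difference of the members was -0.10, and 0.0016 over all genes tested. In bulk RNA, fewer cells in G2 and mitosis and less of these mRNAs per cell cannot be told apart.

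After SAHA the picture was mixed. Relative to DMSO 19 members fell and 6 rose (40.4% and 12.8%), against a background of 31.4% lower and 27.4% higher. In either direction 53.2% of the members passed, against 58.8% of all genes. SAHA and DMSO libraries did not overlap for 20 lower and 9 higher members, with backgrounds of 34.4% and 29.7% (64.1% either way). No member passed a 2-fold call, which 1.12% of all genes did. The median log2 difference was -0.037 for the members and -0.015 for all genes tested. The members that rose were CDK1, AURKB, TPX2, UBE2C, PRC1 and RACGAP1. Both comparisons with DMSO used the same 3 DMSO libraries.

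Set directly against SAHA, H93 gave lower values for most members. The doses differed, 20 µM for H93 and 500 nM for SAHA, at the same time point. Here 26 members were lower and 1, NEK2, was higher (55.3% and 2.13%), where 13.9% of all genes tested were lower and 17.6% higher. The lean of that background turned with the scaling, at 1598 genes lower and 2031 higher as deposited, 1848 and 1693 under median-ratio rescaling, and 1791 and 1693 under quantile normalization. In either direction 57.4% of the members passed, against 31.5% of all genes. H93 and SAHA libraries did not overlap for 30 lower members and 1 higher, with backgrounds of 18.8% and 25.6% (44.4% either way). The log2 difference was below 0 for 42 of the 47 members, with a median of -0.10, against 0.016 over all genes. Of all genes 2 (0.0174%) passed a 2-fold call in this comparison, and no member did.

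**Figure D1:**
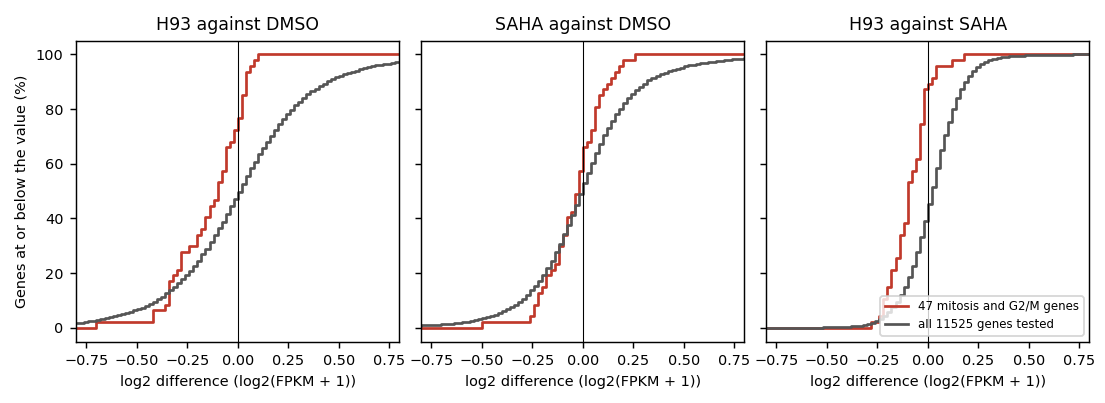
Cumulative share of genes (vertical axis, percent) at or below each log2 difference (horizontal axis, log2(FPKM + 1) scale) for the 47 members (red) and all 11525 genes tested (grey), in the 3 comparisons. The curves cross in all 3 panels, and the members span a narrower range than all genes. At a log2 difference of 0 the red curve stands at 76.6% and the grey at 49.8% for H93 against DMSO, at 66.0% and 53.0% for SAHA against DMSO, and at 89.4% and 45.2% for H93 against SAHA, whereas at -0.5 the red curve is the lower one in each panel.

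Summed over the 47 members, FPKM made up 0.749%, 0.751% and 0.744% of the library total in the H93 libraries, 0.805%, 0.805% and 0.794% in the SAHA libraries and 0.819%, 0.826% and 0.818% in the DMSO libraries. The 3 groups did not overlap, with H93 lowest and DMSO highest. Levels per length spanned a wide range, with CDC20 (189 ± 2.07 FPKM in H93 and 209 ± 3.88 in DMSO cells, mean ± SD, n = 3) at the top and CDC25C (10.2 ± 0.301 in H93 and 10.3 ± 0.537 in DMSO cells) at the bottom. SPC25, at 12.5 ± 0.228 FPKM in H93 cells and 12.4 ± 0.892 FPKM in DMSO cells, stood next to last.

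**Figure D2:**
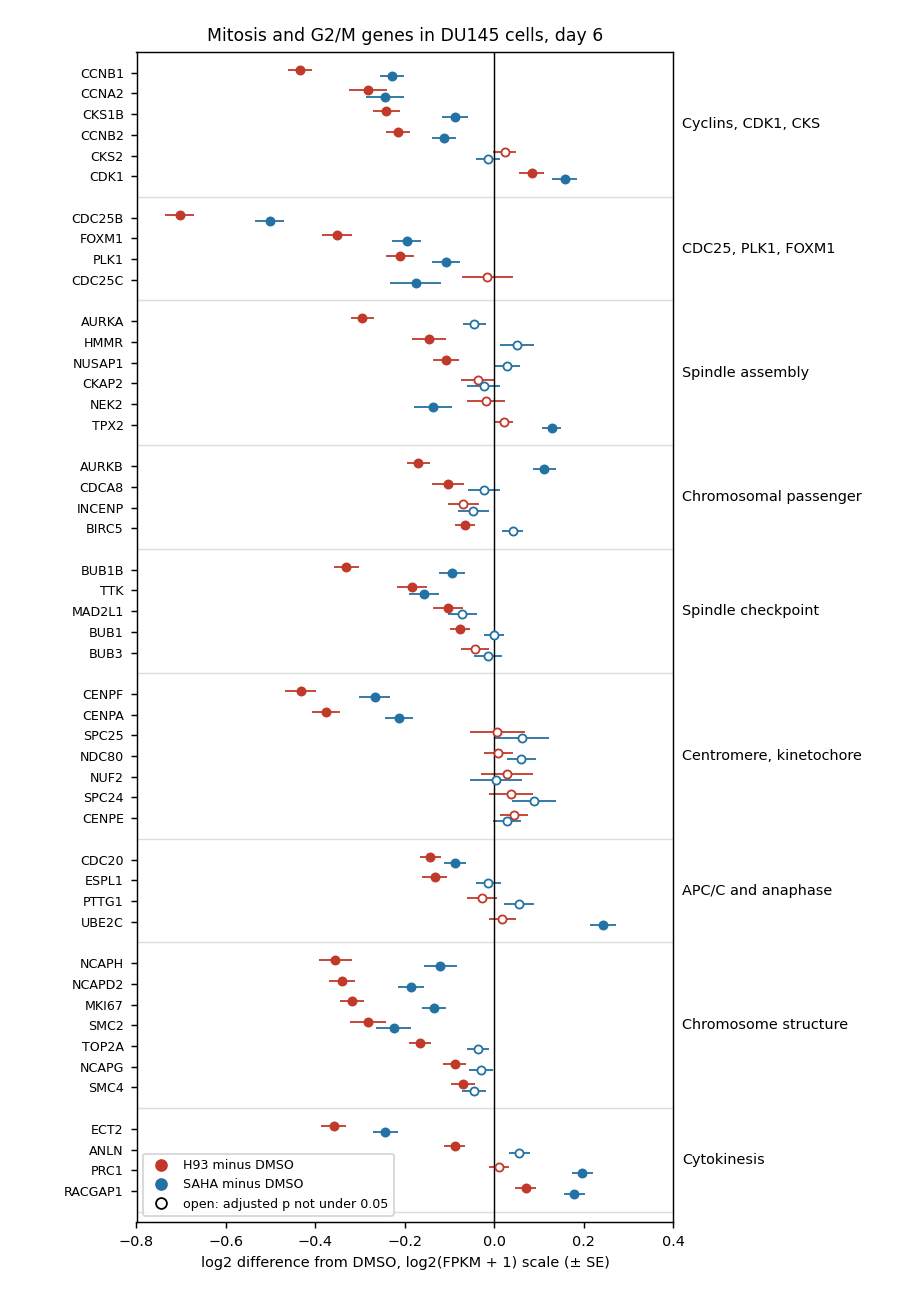
Log2 difference from DMSO (horizontal axis, ± SE) of each member after H93 (red) and SAHA (blue), grouped by role; filled points passed at adjusted p under 0.05. Red points lie mostly below 0, with CDC25B farthest at -0.70, whereas blue points lie on both sides, with UBE2C highest at 0.24.

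The members' promoters were examined for the elements known to time G2 transcription, the CHR element (TTTGAA or TTCGAA), which MuvB binds, and the CCAAT box of NF-Y. RefSeq windows from 250 bases before to 50 after the gene start (GRCh38.p14) were found for 39 members, and not for AURKA, BIRC5, BUB3, FOXM1, RACGAP1, TPX2, TTK and UBE2C. Both strands were searched. A CHR element was present in 28 of the 39 windows (71.8%), against 10.5% of the 9528 windows of all genes tested and 16.6% of all 27305 windows in the table. Within 50 bases of the start, a distance chosen after the positions were seen, it was present in 23 members (59.0%) and in 3.03% of the genes tested. A CCAAT box was present in 28 windows (71.8%), against 37.0% of the genes tested and 35.7% of all windows, and 20 members had 2 or more. Both elements stood together in 21 members (53.8%), and in 4.54% of the genes tested.

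Of the members that fell after H93, 21 of 26 with a window held a CHR element and 20 a CCAAT box. Of those that passed in neither direction, 6 of 12 held a CHR element and 7 a CCAAT box. After SAHA the split of the CHR element ran the other way, with 11 of 17 members that fell (64.7%) and 15 of 19 that did not pass (78.9%), while a CCAAT box was present in 13 of 17 and 12 of 19. The median log2 difference of H93 against DMSO was -0.12 in the 28 members with a CHR element and -0.038 in the 11 without one. For the CCAAT box it was -0.15 in the 28 members with one and -0.070 in the 11 without. Such medians were not computed for SAHA. The motif counts are of letters in a window, not of bound sites, and no test was made of the counts or medians. The member that fell most, CDC25B, had neither element, and CCNB1 had CCAAT boxes but neither spelling of the CHR element searched. The windows of the 4 members with the largest differences after H93, and of CDK1, which rose, are printed 5′ to 3′ on the strand of the gene with CHR elements and CCAAT boxes (CCAAT or its reverse complement ATTGG) in capitals. None of the capitals overlap. All 5 genes lie on the plus strand and are protein-coding, and the windows are chr20:3786701-3787000 for CDC25B, chr5:69166900-69167199 for CCNB1, chr1:214602945-214603244 for CENPF, chr2:26785806-26786105 for CENPA and chr10:60778081-60778380 for CDK1. In CENPA a CHR element lies 18 to 13 bases before the start, and in CENPF it lies 41 to 46 bases after it.
CDC25B: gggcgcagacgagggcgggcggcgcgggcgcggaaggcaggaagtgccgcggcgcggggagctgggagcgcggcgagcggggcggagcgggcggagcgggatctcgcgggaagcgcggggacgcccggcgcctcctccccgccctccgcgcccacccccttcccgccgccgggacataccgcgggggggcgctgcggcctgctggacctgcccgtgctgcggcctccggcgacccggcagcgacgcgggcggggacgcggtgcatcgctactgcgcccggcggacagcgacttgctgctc
CCNB1: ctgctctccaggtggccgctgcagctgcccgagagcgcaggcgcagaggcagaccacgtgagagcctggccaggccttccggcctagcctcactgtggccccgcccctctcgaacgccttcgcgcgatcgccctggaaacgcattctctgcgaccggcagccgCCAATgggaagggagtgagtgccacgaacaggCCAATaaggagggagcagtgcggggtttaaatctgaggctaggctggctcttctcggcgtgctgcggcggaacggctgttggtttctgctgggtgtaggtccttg
CENPF: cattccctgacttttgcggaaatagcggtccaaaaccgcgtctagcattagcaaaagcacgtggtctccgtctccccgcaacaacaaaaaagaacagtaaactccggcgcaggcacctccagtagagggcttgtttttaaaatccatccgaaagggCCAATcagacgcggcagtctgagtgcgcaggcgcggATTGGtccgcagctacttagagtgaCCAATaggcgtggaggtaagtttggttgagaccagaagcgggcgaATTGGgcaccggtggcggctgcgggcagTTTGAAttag
CENPA: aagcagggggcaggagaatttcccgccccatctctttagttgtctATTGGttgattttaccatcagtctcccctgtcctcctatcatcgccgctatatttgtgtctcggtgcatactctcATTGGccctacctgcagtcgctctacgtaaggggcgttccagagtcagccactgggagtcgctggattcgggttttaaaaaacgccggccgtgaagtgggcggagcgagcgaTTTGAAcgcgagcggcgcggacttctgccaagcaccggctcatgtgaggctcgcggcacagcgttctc
CDK1: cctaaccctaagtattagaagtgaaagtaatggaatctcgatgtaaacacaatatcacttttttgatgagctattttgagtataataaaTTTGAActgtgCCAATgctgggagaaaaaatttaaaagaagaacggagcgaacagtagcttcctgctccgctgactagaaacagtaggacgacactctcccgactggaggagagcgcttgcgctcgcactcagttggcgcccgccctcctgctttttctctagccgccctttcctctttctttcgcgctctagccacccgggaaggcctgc

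Cyclins, CDK1 and its CKS partners made up 6 members. After H93 4 of them fell, CDK1 rose and CKS2 did not pass, and the same counts held after SAHA. The background was 35.0% of all genes tested lower and 34.9% higher after H93, and 31.4% and 27.4% after SAHA. CCNB1, the cyclin of mitotic entry, had 74.5, 76.7 and 74.3 FPKM in the H93, 83.5, 88.6 and 88.4 FPKM in the SAHA and 102, 101 and 103 FPKM in the DMSO libraries. The 3 groups did not overlap, with H93 lowest and DMSO highest, and the difference from DMSO was larger than the spread between libraries after H93 (log2 difference -0.44, SE 0.0268, adjusted p = 2.3e-08) and after SAHA (log2 difference -0.23, SE 0.0268, adjusted p = 1.28e-05). CCNB2 (cyclin B2), with 66.2, 67.5 and 64.8 FPKM in the H93, 70.5, 70.8 and 72.3 FPKM in the SAHA and 79.2, 74.8 and 77.2 FPKM in the DMSO libraries, kept the same order without overlap (log2 difference -0.22, adjusted p = 1.32e-05 for H93 against DMSO). CCNA2 (cyclin A2), which acts in S phase and G2, had 30.6, 31.1 and 30.1 FPKM in the H93, 31.2, 30.1 and 33.1 FPKM in the SAHA and 37.2, 39.7 and 35.5 FPKM in the DMSO libraries. Its H93 and SAHA values overlapped and both lay below DMSO (log2 difference -0.28, adjusted p = 6.3e-05 for H93, and log2 difference -0.24, adjusted p = 0.000315 for SAHA).

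CDK1, the kinase itself, had 56.8, 58.1 and 54.2 FPKM in the H93, 59.2, 60.1 and 58.8 FPKM in the SAHA and 52.7, 52.7 and 54.0 FPKM in the DMSO libraries. The groups did not overlap, with SAHA highest and DMSO lowest. It rose after SAHA (log2 difference 0.16, SE 0.0279, adjusted p = 0.000406), and after H93 it rose by 0.084 on the log2 scale (adjusted p = 0.0176). That rise after H93 was lost without DMSO replicate 1 (adjusted p = 0.0541), DMSO replicate 2 (0.0534), H93 replicate 1 (0.0533) or H93 replicate 2 (0.0867). CDK1 did not pass for H93 against SAHA (adjusted p = 0.0642), but passed as lower under median-ratio rescaling (0.03) and quantile normalization (0.0381) and without H93 replicate 2 (0.0408). The CKS proteins are small subunits that help CDK1 to bind phosphorylated substrates. CKS1B had 132, 131 and 130.1 FPKM in the H93, 141, 153 and 143 FPKM in the SAHA and 158, 153 and 154 FPKM in the DMSO libraries, lower after H93 (log2 difference -0.24, SE 0.0295, adjusted p = 1.16e-05) without overlap, and lower after SAHA (log2 difference -0.088, adjusted p = 0.0219) with overlap. The call for SAHA was lost without DMSO replicate 1 (adjusted p = 0.0807), SAHA replicate 1 (0.0868) or SAHA replicate 3 (0.077). CKS2, its paralog, had 176, 177 and 173 FPKM in the H93, 166, 174 and 173 FPKM in the SAHA and 173, 177 and 167 FPKM in the DMSO libraries, with all groups overlapping and a 95% interval of -0.034 to 0.08 for the log2 difference of H93 against DMSO.

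**Figure D3:**
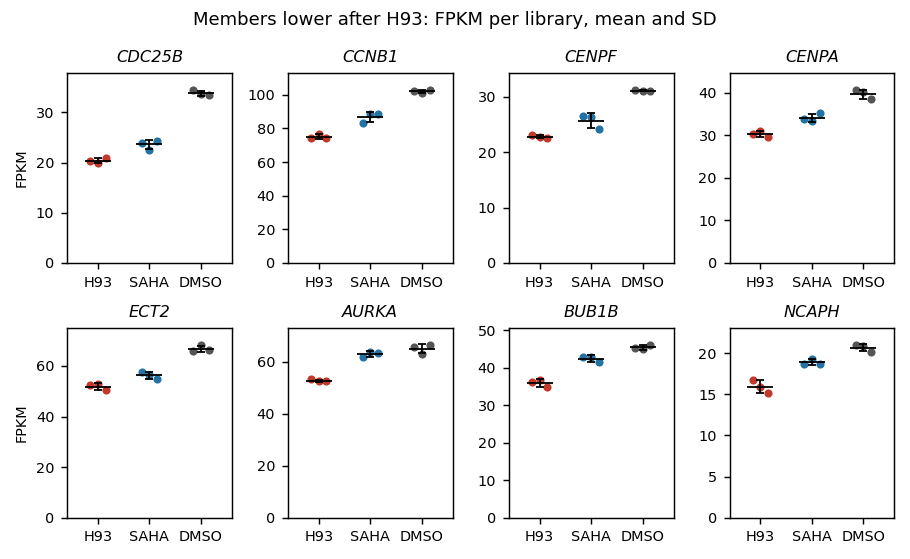
FPKM per library (points), mean and SD (bars) of 8 members lower after H93, for H93, SAHA and DMSO from left to right. In each of the 8 the H93 libraries lie below all DMSO and all SAHA libraries; CDC25B shows the widest gap, 20.4 ± 0.490 against 33.9 ± 0.466 FPKM for H93 against DMSO.

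The activators of mitotic entry were next. CDC25B, the CDC25 phosphatase that starts CDK1 activation, showed the largest difference of all members in both comparisons with DMSO. It had 20.2, 20.0 and 21.0 FPKM in the H93, 24.0, 22.6 and 24.2 FPKM in the SAHA and 34.4, 33.6 and 33.5 FPKM in the DMSO libraries. The groups did not overlap, and CDC25B was lower after H93 (log2 difference -0.70, SE 0.0327, adjusted p = 2.04e-09) and after SAHA (log2 difference -0.50, SE 0.0327, adjusted p = 8.26e-08), and lower after H93 than after SAHA (log2 difference -0.20, adjusted p = 0.000932). Its paralog CDC25C had 10.6, 10.0 and 10.1 FPKM in the H93, 8.57, 10.1 and 8.51 FPKM in the SAHA and 9.77, 10.4 and 10.8 FPKM in the DMSO libraries. H93 and DMSO values overlapped (log2 difference -0.016, adjusted p = 0.819), with a 95% interval of -0.14 to 0.11, and the lower SAHA values passed (log2 difference -0.18, adjusted p = 0.0196) although SAHA and DMSO overlapped. That call was lost without DMSO replicate 3 (adjusted p = 0.0794), SAHA replicate 1 (0.0754) or SAHA replicate 3 (0.0816). CDC25C did not pass for H93 against SAHA (adjusted p = 0.0523), but did so without SAHA replicate 2 (adjusted p = 0.00571), and when genes were filtered at a mean FPKM of 5 (0.041).

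FOXM1, the transcription factor that drives many G2 genes, had 33.6, 32.1 and 34.5 FPKM in the H93, 38.5, 35.7 and 37.7 FPKM in the SAHA and 42.8, 42.9 and 43.0 FPKM in the DMSO libraries. All H93 libraries lay below all SAHA libraries and these below all DMSO libraries (log2 difference -0.35, SE 0.0335, adjusted p = 1.19e-06 for H93 against DMSO). PLK1, the polo kinase of entry and spindle formation, had 67.1, 66.6 and 68.8 FPKM in the H93, 73.7, 69.1 and 75.2 FPKM in the SAHA and 79.0, 79.1 and 76.8 FPKM in the DMSO libraries, in the same order (log2 difference -0.21, adjusted p = 6.1e-05 for H93, and log2 difference -0.11, adjusted p = 0.0105 for SAHA, each against DMSO). PLK1 was also lower after H93 than after SAHA (log2 difference -0.10, adjusted p = 0.0247), a call lost without H93 replicate 1 (adjusted p = 0.0676), H93 replicate 2 (0.0805), SAHA replicate 1 (0.0706) or SAHA replicate 3 (0.0949).

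Among 6 spindle genes 3 fell after H93 and none rose, while after SAHA NEK2 fell and TPX2 rose. The background was 35.0% of all genes tested lower and 34.9% higher after H93, and 31.4% and 27.4% after SAHA. AURKA, the kinase of centrosomes and spindle poles, had 53.2, 52.5 and 52.6 FPKM in the H93, 61.8, 63.6 and 63.5 FPKM in the SAHA and 65.5, 63.1 and 66.3 FPKM in the DMSO libraries. The H93 values lay below both other groups, which overlapped, and H93 was lower than DMSO (log2 difference -0.30, SE 0.0254, adjusted p = 4.86e-07) and than SAHA (log2 difference -0.25, SE 0.0254, adjusted p = 5.81e-05). TPX2, the protein that activates AURKA on microtubules, had 124, 124 and 124 FPKM in the H93, 135, 135 and 131 FPKM in the SAHA and 120.5, 123 and 123 FPKM in the DMSO libraries. The H93 libraries lay just above the DMSO libraries without passing (log2 difference 0.021, adjusted p = 0.413), and SAHA stood above both (log2 difference 0.13, adjusted p = 0.000276 against DMSO).

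HMMR, a microtubule-associated protein, had 24.3, 23.9 and 22.7 FPKM in the H93, 28.7, 27.1 and 26.0 FPKM in the SAHA and 25.8, 26.5 and 26.5 FPKM in the DMSO libraries, lower after H93 than after DMSO (log2 difference -0.15, adjusted p = 0.00431) and than after SAHA (log2 difference -0.20, adjusted p = 0.00275), with SAHA and DMSO overlapping. NUSAP1, which bundles spindle microtubules, followed the same pattern with 75.7, 78.1 and 72.9 FPKM in the H93, 81.5, 85.0 and 83.0 FPKM in the SAHA and 79.9, 83.3 and 81.3 FPKM in the DMSO libraries (log2 difference -0.11, adjusted p = 0.00556 for H93 against DMSO). CKAP2, another spindle protein, had 31.5, 32.7 and 29.9 FPKM in the H93, 31.1, 32.9 and 31.0 FPKM in the SAHA and 33.1, 31.8 and 31.7 FPKM in the DMSO libraries, and all groups overlapped, with a 95% interval of -0.12 to 0.042 for H93 against DMSO. NEK2, a kinase that separates centrosomes, had 16.3, 16.2 and 15.9 FPKM in the H93, 14.6, 15.7 and 14.1 FPKM in the SAHA and 16.3, 17.1 and 15.7 FPKM in the DMSO libraries, and SAHA lay below H93 and, by less than the rounding printed here, below DMSO. NEK2 was lower after SAHA than after DMSO (log2 difference -0.14, adjusted p = 0.0136), which was lost without DMSO replicate 2 (adjusted p = 0.0633) or SAHA replicate 3 (0.0617). It was the 1 member higher after H93 than after SAHA (log2 difference 0.12, adjusted p = 0.0487), and this did not hold with no filter on low values (0.0832), under median-ratio rescaling (0.0763), quantile normalization (0.104), in a fit of only the 6 libraries compared (0.0548), or without DMSO replicate 1 (0.062), H93 replicate 1 (0.116), 2 (0.111) or 3 (0.0733), or SAHA replicate 1 (0.113) or 3 (0.173).

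The chromosomal passenger complex places the kinase Aurora B at centromeres and the midzone, and all 4 of its subunits are members. AURKB, the kinase, had 61.1, 61.3 and 61.6 FPKM in the H93, 75.6, 73.9 and 74.8 FPKM in the SAHA and 68.0, 71.5 and 68.1 FPKM in the DMSO libraries. No 2 groups overlapped, and AURKB was the member with the largest difference between the compounds: it was lower than DMSO after H93 (log2 difference -0.17, SE 0.025, adjusted p = 5.8e-05), higher than DMSO after SAHA (log2 difference 0.11, SE 0.025, adjusted p = 0.00214), and lower after H93 than after SAHA (log2 difference -0.28, SE 0.025, adjusted p = 2.65e-05). BIRC5 (survivin) had 92.8, 92.7 and 94.0 FPKM in the H93, 100.1, 98.3 and 103 FPKM in the SAHA and 96.5, 97.9 and 98.3 FPKM in the DMSO libraries, with H93 below both other groups. Its fall after H93 (log2 difference -0.066, adjusted p = 0.0216) was lost without DMSO replicate 2 (adjusted p = 0.0588), DMSO replicate 3 (0.0709), H93 replicate 1 (0.0575) or H93 replicate 2 (0.064), whereas it was lower after H93 than after SAHA at an adjusted p of 0.00467 in limma.

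CDCA8 (borealin) had 35.0, 33.6 and 31.6 FPKM in the H93, 34.5, 35.2 and 36.4 FPKM in the SAHA and 36.0, 36.0 and 35.9 FPKM in the DMSO libraries. It fell after H93 (log2 difference -0.10, adjusted p = 0.02), a call lost without H93 replicate 3 (adjusted p = 0.0936). For H93 against SAHA it did not pass (adjusted p = 0.103), but passed without H93 replicate 1 (0.038). INCENP, the scaffold, had 29.7, 28.1 and 31.0 FPKM in the H93, 30.2, 30.6 and 29.4 FPKM in the SAHA and 31.5, 31.0 and 30.7 FPKM in the DMSO libraries. The H93 and DMSO values overlapped and it did not pass (log2 difference -0.069, adjusted p = 0.0932), but without H93 replicate 3 it did (0.0189).

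Of 5 spindle checkpoint genes 4 fell after H93 and 2 after SAHA, where 35.0% and 31.4% of all genes tested fell. The 4 include MAD2L1, whose call was lost without certain single libraries, as given below. BUB1B, which encodes BubR1, an inhibitor of CDC20, had 36.1, 36.8 and 34.7 FPKM in the H93, 42.9, 43.0 and 41.4 FPKM in the SAHA and 45.3, 44.9 and 46.0 FPKM in the DMSO libraries. The 3 groups did not overlap, with H93 lowest, and the log2 difference from DMSO was -0.33 (adjusted p = 4.78e-07) after H93 and -0.095 (adjusted p = 0.0124) after SAHA. Without SAHA replicate 3 the SAHA call was lost (adjusted p = 0.0515). BUB1B was also lower after H93 than after SAHA (log2 difference -0.24, SE 0.0284, adjusted p = 0.000152). TTK (MPS1), the kinase that starts the checkpoint, had 15.3, 15.6 and 14.8 FPKM in the H93, 15.5, 15.6 and 15.6 FPKM in the SAHA and 16.9, 17.4 and 18.0 FPKM in the DMSO libraries, so that H93 and SAHA overlapped below DMSO (log2 difference -0.18, adjusted p = 0.00035 for H93, and log2 difference -0.16, adjusted p = 0.0015 for SAHA).

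BUB1, the kinetochore kinase, had 42.0, 42.0 and 42.5 FPKM in the H93, 44.7, 44.1 and 44.7 FPKM in the SAHA and 44.1, 44.4 and 45.0 FPKM in the DMSO libraries. It was lower after H93 than after DMSO (log2 difference -0.077, adjusted p = 0.0096) and than after SAHA (log2 difference -0.076, adjusted p = 0.0249), and the second call was lost without H93 replicate 1 (adjusted p = 0.0698), H93 replicate 2 (0.0716), SAHA replicate 1 (0.0581) or SAHA replicate 3 (0.0644). MAD2L1, the MAD2 that binds CDC20, had 17.4, 18.2 and 17.1 FPKM in the H93, 18.0, 18.2 and 17.8 FPKM in the SAHA and 19.3, 19.3 and 18.3 FPKM in the DMSO libraries. Its fall after H93 (log2 difference -0.10, adjusted p = 0.014) was lost without DMSO replicate 1 (adjusted p = 0.0505), DMSO replicate 2 (0.0531) or H93 replicate 3 (0.0551). After SAHA MAD2L1 did not pass (adjusted p = 0.0834), but did without DMSO replicate 3 (0.0444). BUB3, the adaptor of BUB1 and BubR1, had 22.3, 22.7 and 22.4 FPKM in the H93, 22.5, 23.5 and 22.7 FPKM in the SAHA and 23.6, 22.4 and 23.5 FPKM in the DMSO libraries, with overlapping groups and a 95% interval of -0.11 to 0.025 for the log2 difference of H93 against DMSO.

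The 7 centromere and kinetochore genes were split. CENPA and CENPF fell after both compounds and the other 5 passed in no comparison. The background was 35.0% of all genes tested lower after H93 and 31.4% after SAHA. CENPF had 23.0, 22.8 and 22.5 FPKM in the H93, 26.5, 26.3 and 24.2 FPKM in the SAHA and 31.1, 31.0 and 31.1 FPKM in the DMSO libraries. CENPF was lower after H93 (log2 difference -0.43, SE 0.0343, adjusted p = 2.33e-07) and after SAHA (log2 difference -0.27, SE 0.0343, adjusted p = 2.94e-05) than after DMSO, and lower after H93 than after SAHA (log2 difference -0.17, adjusted p = 0.00388). CENPA had 30.4, 31.1 and 29.8 FPKM in the H93, 33.8, 33.4 and 35.3 FPKM in the SAHA and 40.6, 40.1 and 38.6 FPKM in the DMSO libraries, again with no overlap between groups (log2 difference -0.38, SE 0.031, adjusted p = 3.31e-07 for H93, and log2 difference -0.21, adjusted p = 8.42e-05 for SAHA, each against DMSO).

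The NDC80 complex, which ties kinetochores to microtubule ends, has 4 subunits, all members. NDC80 had 53.6, 54.0 and 50.6 FPKM in the H93, 53.7, 56.8 and 53.6 FPKM in the SAHA and 53.1, 51.7 and 52.5 FPKM in the DMSO libraries. NUF2 had 16.1, 17.8 and 16.6 FPKM in the H93, 17.4, 16.9 and 15.4 FPKM in the SAHA and 16.0, 18.0 and 15.6 FPKM in the DMSO libraries. SPC24 had 15.5, 16.1 and 16.5 FPKM in the H93, 17.7, 16.1 and 16.2 FPKM in the SAHA and 16.8, 15.2 and 14.8 FPKM in the DMSO libraries. All groups of NUF2 and SPC24 overlapped, whereas for NDC80 SAHA lay above DMSO without passing (adjusted p = 0.12). SPC25 had 12.7, 12.3 and 12.4 FPKM in the H93, 14.5, 12.3 and 12.3 FPKM in the SAHA and 13.0, 12.8 and 11.4 FPKM in the DMSO libraries, with all groups overlapping. The 95% intervals of the log2 difference of H93 against DMSO were -0.06 to 0.078 for NDC80, -0.10 to 0.15 for NUF2, -0.07 to 0.15 for SPC24 and -0.13 to 0.14 for SPC25. Without DMSO replicate 1 SPC24 passed as higher after SAHA (adjusted p = 0.0235). CENPE, a kinesin that moves chromosomes to the spindle equator, had 16.3, 16.7 and 15.9 FPKM in the H93, 16.3, 16.2 and 15.9 FPKM in the SAHA and 15.4, 15.9 and 16.0 FPKM in the DMSO libraries, overlapping throughout (log2 difference 0.043, adjusted p = 0.241 for H93 against DMSO).

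**Figure D4:**
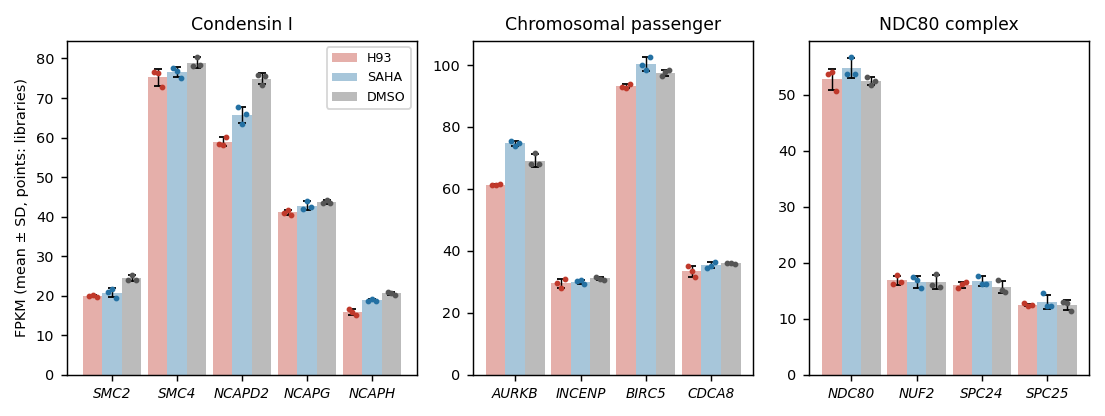
FPKM (bars: mean, error bars: SD, points: libraries) of the subunits of condensin I, the chromosomal passenger complex and the NDC80 complex in H93, SAHA and DMSO cells from left to right. All 5 condensin I subunits are lower after H93 than after DMSO, AURKB is lowest after H93 and highest after SAHA, and the 4 NDC80 subunits overlap between H93 and DMSO.

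The genes of chromosome structure were the 1 role in which every member, 7 of 7, fell after H93, and 4 fell after SAHA. The background was 35.0% of all genes tested lower after H93 and 31.4% after SAHA. The 7 include SMC4, whose call was lost under some alternatives, as given below. Condensin I, the ring complex that compacts mitotic chromosomes, consists of SMC2, SMC4, NCAPD2, NCAPG and NCAPH. NCAPH, the closing subunit, had 16.8, 15.9 and 15.2 FPKM in the H93, 18.7, 19.3 and 18.7 FPKM in the SAHA and 20.9, 20.8 and 20.2 FPKM in the DMSO libraries. It was lower after H93 than after DMSO (log2 difference -0.36, SE 0.0369, adjusted p = 2.72e-06) and than after SAHA (log2 difference -0.23, SE 0.0369, adjusted p = 0.000759), without overlap. NCAPD2, a HEAT-repeat subunit, had 58.4, 58.1 and 60.2 FPKM in the H93, 67.6, 63.5 and 65.9 FPKM in the SAHA and 75.8, 73.3 and 75.5 FPKM in the DMSO libraries, in the same order (log2 difference -0.34, adjusted p = 3.55e-07 for H93, and log2 difference -0.19, adjusted p = 0.000116 for SAHA, each against DMSO). SMC2, one of the ring ATPases, had 19.9, 20.1 and 19.6 FPKM in the H93, 21.0, 21.7 and 19.4 FPKM in the SAHA and 24.0, 25.2 and 23.9 FPKM in the DMSO libraries, with SAHA and H93 overlapping below DMSO (log2 difference -0.28, adjusted p = 3.79e-05 for H93, and log2 difference -0.23, adjusted p = 0.000367 for SAHA).

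NCAPG, the second HEAT-repeat subunit, differed less, with 41.0, 41.7 and 40.4 FPKM in the H93, 41.9, 44.0 and 42.5 FPKM in the SAHA and 43.5, 44.2 and 43.4 FPKM in the DMSO libraries (log2 difference -0.089, adjusted p = 0.00931 for H93 against DMSO). SMC4, the partner of SMC2, had 76.6, 76.2 and 72.8 FPKM in the H93, 77.6, 76.8 and 75.1 FPKM in the SAHA and 78.2, 80.5 and 78.2 FPKM in the DMSO libraries. It fell after H93 (log2 difference -0.07, adjusted p = 0.0326), but not without DMSO replicate 2 (adjusted p = 0.119) or H93 replicate 3 (0.144), nor under quantile normalization (0.0819). TOP2A, the topoisomerase that untangles sister DNA, had 130.4, 129 and 125 FPKM in the H93, 141, 143 and 136 FPKM in the SAHA and 144, 144 and 143 FPKM in the DMSO libraries. H93 lay below both other groups (log2 difference -0.17, adjusted p = 5.45e-05 against DMSO), and SAHA and DMSO overlapped. MKI67, the proliferation marker Ki-67 that coats mitotic chromosomes, had 45.3, 46.2 and 47.8 FPKM in the H93, 54.0, 52.6 and 52.0 FPKM in the SAHA and 58.9, 58.0 and 57.4 FPKM in the DMSO libraries, and was lower after H93 (log2 difference -0.32, SE 0.027, adjusted p = 4.27e-07) and after SAHA (log2 difference -0.14, adjusted p = 0.000946), with no overlap.

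Of the 4 genes of the APC/C and anaphase, CDC20 and ESPL1 fell after H93, and after SAHA CDC20 fell and UBE2C rose. The background was 35.0% of all genes tested lower and 34.9% higher after H93, and 31.4% and 27.4% after SAHA. CDC20, the activator of the APC/C, had 188, 192 and 188 FPKM in the H93, 195, 193 and 202 FPKM in the SAHA and 205, 209 and 213 FPKM in the DMSO libraries. Both compounds gave values below DMSO (log2 difference -0.14, SE 0.0237, adjusted p = 0.000148 for H93, and log2 difference -0.088, adjusted p = 0.00653 for SAHA). H93 and SAHA did not overlap, but did not pass (adjusted p = 0.0929), except under median-ratio rescaling (0.0438). UBE2C, the ubiquitin-conjugating enzyme of the APC/C, had 129, 127 and 136 FPKM in the H93, 155, 154 and 150.4 FPKM in the SAHA and 133, 128 and 127 FPKM in the DMSO libraries. It was higher after SAHA than after DMSO (log2 difference 0.24, SE 0.0294, adjusted p = 1.76e-05), the largest rise among the members, while H93 and DMSO overlapped (log2 difference 0.018, adjusted p = 0.601) and H93 was lower than SAHA (log2 difference -0.23, adjusted p = 0.000238).

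ESPL1 (separase), the protease that opens cohesin, had 16.9, 16.8 and 17.2 FPKM in the H93, 18.8, 18.3 and 18.5 FPKM in the SAHA and 18.6, 18.8 and 18.7 FPKM in the DMSO libraries, lower after H93 than after DMSO (log2 difference -0.13, adjusted p = 0.000967) and than after SAHA (log2 difference -0.12, adjusted p = 0.00736). PTTG1 (securin), its inhibitor, had 90.5, 93.5 and 94.5 FPKM in the H93, 96.7, 94.7 and 104 FPKM in the SAHA and 96.5, 94.8 and 92.8 FPKM in the DMSO libraries. H93 and DMSO overlapped, with a 95% interval of -0.10 to 0.044. PTTG1 passed for H93 against SAHA only without SAHA replicate 2 (adjusted p = 0.0343; 0.078 with all libraries).

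In cytokinesis the 4 members went different ways against DMSO, and all 4 were lower after H93 than after SAHA, as were 13.9% of all genes tested. ECT2, the exchange factor that activates RhoA at the cleavage furrow, had 52.4, 52.8 and 50.4 FPKM in the H93, 57.5, 56.3 and 54.9 FPKM in the SAHA and 65.7, 68.2 and 66.4 FPKM in the DMSO libraries. It was lower after H93 (log2 difference -0.36, SE 0.0278, adjusted p = 1.87e-07) and after SAHA (log2 difference -0.24, SE 0.0278, adjusted p = 1.08e-05) than after DMSO. RACGAP1, the centralspindlin subunit that recruits ECT2, had 59.3, 61.3 and 59.4 FPKM in the H93, 64.7, 65.3 and 64.3 FPKM in the SAHA and 57.6, 56.1 and 57.6 FPKM in the DMSO libraries. RACGAP1 was higher after SAHA (log2 difference 0.18, SE 0.0241, adjusted p = 4.38e-05), and after H93 it rose by 0.070 on the log2 scale (adjusted p = 0.0211), a call lost without DMSO replicate 2 (adjusted p = 0.0867) or H93 replicate 2 (0.0961). PRC1, the bundler of midzone microtubules, had 98.3, 97.6 and 96.9 FPKM in the H93, 108, 113 and 113 FPKM in the SAHA and 96.2, 96.3 and 98.3 FPKM in the DMSO libraries, with H93 and DMSO overlapping (log2 difference 0.0099, adjusted p = 0.715) and SAHA above both (log2 difference 0.20, adjusted p = 1.34e-05 against DMSO). ANLN (anillin), a scaffold of the contractile ring, had 80.1, 78.2 and 79.8 FPKM in the H93, 86.5, 89.7 and 87.5 FPKM in the SAHA and 83.5, 85.3 and 84.8 FPKM in the DMSO libraries, lower after H93 than after DMSO (log2 difference -0.089, adjusted p = 0.00394). After SAHA ANLN did not pass (adjusted p = 0.054), but passed as higher with no filter on low values (0.0404), under median-ratio rescaling (0.0283) and quantile normalization (0.0162) and without SAHA replicate 1 (0.0411).

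**Figure D5:**
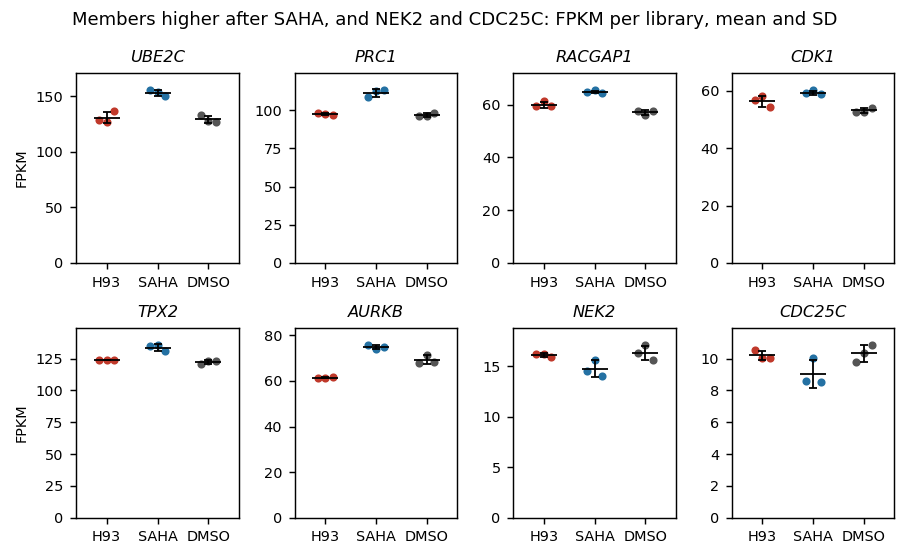
FPKM per library (points), mean and SD (bars) for H93, SAHA and DMSO from left to right. The SAHA libraries of UBE2C, PRC1, RACGAP1, CDK1, TPX2 and AURKB lie above all DMSO libraries, whereas SAHA has the lowest mean for NEK2 and CDC25C.

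Other mitotic genes were counted in 9 lists taken from textbook knowledge. The lists were chosen with earlier results of these data known, so they are no independent check on the members. Of 134 tested genes that are not members, 68 fell and 19 rose after H93 against DMSO, with a median log2 difference of -0.088. Over all genes tested 35.0% fell and 34.9% rose in that comparison, with a median of 0.0016. After SAHA 53 fell and 17 rose, with a median of -0.064, where 31.4% of all genes fell and 27.4% rose. For H93 against SAHA 32 were lower and 7 higher, with a median of -0.034, against 13.9% and 17.6% of all genes. Of 12 mitotic kinesins 9 fell and 0 rose after H93, with KIF20A, a motor of the midzone, at 46.9 ± 0.997 FPKM in H93, 54.5 ± 1.25 in SAHA and 64.6 ± 0.927 in DMSO cells (mean ± SD, n = 3). All 3 subunits particular to condensin II fell after H93, with NCAPG2 at 16.6 ± 0.383 FPKM in H93 and 21.2 ± 0.0810 in DMSO cells. Of 22 centrosome and spindle pole genes 14 fell and 2 rose, with the scaffold PCNT at 10.4 ± 0.178 FPKM in H93 and 15.2 ± 0.225 in DMSO cells.

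After H93, where 35.0% of all genes tested fell and 34.9% rose, 6 of 13 MuvB, DREAM and E2F regulators fell and 3 rose. Among them MYBL2 (B-MYB), the activator that joins MuvB for G2 transcription, had 70.0, 72.8 and 75.9 FPKM in the H93, 90.3, 86.9 and 91.9 FPKM in the SAHA and 120.3, 116 and 119 FPKM in the DMSO libraries. The groups did not overlap, and MYBL2 was lower after H93 (log2 difference -0.69, SE 0.0316, adjusted p = 1.7e-09) and after SAHA (log2 difference -0.40, SE 0.0316, adjusted p = 4.51e-07) than after DMSO. LIN54, the DNA-binding MuvB subunit, was higher after H93, at 5.10 ± 0.0510 FPKM in H93 and 3.73 ± 0.0765 in DMSO cells (log2 difference 0.36, adjusted p = 7.62e-06). APC/C genes (10 of 17 lower, 3 higher) included ANAPC13, which rose, at 22.4 ± 1.45 FPKM in H93 and 14.5 ± 0.736 in DMSO cells. ANAPC16, which fell, had 12.6 ± 0.384 FPKM in H93 and 18.0 ± 0.54 in DMSO cells. Cohesin genes (9 of 15 lower, 1 higher) included PDS5A at 29.0 ± 0.958 FPKM in H93 and 39.1 ± 0.351 in DMSO cells.

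Other centromere and kinetochore genes were split (10 of 30 lower, 5 higher), with PMF1, a subunit of the MIS12 complex, at 5.84 ± 0.436 FPKM in H93 and 10.6 ± 1.15 in DMSO cells. Other entry regulators (4 of 13 lower, 2 higher) included MNAT1, a subunit of the CDK-activating kinase, at 15.4 ± 0.583 FPKM in H93 and 8.70 ± 0.522 in DMSO cells. BORA, which fell, had 5.9 ± 0.46 FPKM in H93 and 8.3 ± 0.77 in DMSO cells. Other cytokinesis genes (3 of 9 lower, 3 higher) included SHCBP1 at 24.9 ± 0.764 FPKM in H93 and 21.6 ± 0.192 in DMSO cells. In each of these lists the share that fell was near the 35.0% of all genes tested that fell. The share that rose was below the 34.9% of all genes tested in the kinetochore and entry lists, and near it in the cytokinesis list. For comparison, of 34 S phase genes 24 fell and 0 rose after H93, 20 fell and 0 rose after SAHA, and 20 were lower and 0 higher for H93 against SAHA, with medians of -0.24, -0.15 and -0.11. Over all genes tested, 35.0% were lower and 34.9% higher after H93, 31.4% and 27.4% after SAHA, and 13.9% and 17.6% for H93 against SAHA. The counts of the S phase genes are set beside those of the mitotic genes as a description, and no test was made between the lists.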

How the data were processed

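The authors deposited 1 table of FPKM values (fragments scaled by transcript length and mapped fragments) for 16772 genes in 9 libraries. TRIzol served for RNA and the TruSeq Stranded mRNA kit for libraries, per the labels. Cufflinks, HISAT2, Trimmomatic 0.36 and the build GRCh38.p13 appear, without roles, in the submitters' processing notes. The sources used here give neither annotation nor strand setting. Groups came from sample titles, and each column was matched to 1 sample by name.

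Values were analysed as log2(FPKM + 1), a scale that understates changes of low genes, in the 11525 genes reaching FPKM 1 in 3 libraries or more. All 9 libraries entered 1 limma fit (version 3.58.1, R 4.3.3) of group means, moderated with a trend over mean expression, on 6 residual plus 6.05 prior degrees of freedom. P-values were two-sided and Benjamini-Hochberg adjusted over every gene tested. Exact permutation of 3 against 3 libraries has a smallest p of 0.1 and was not used. The fit was also run on simulated data with independent noise, in which a small set of genes changed by more than most members did here. That run does not bear on calls as small as most of those reported. Absolute depth is unknown, so no counting interval was computed.

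Members, roles, lists and motifs were chosen with earlier results of these data known. The rule for named genes asked for values in every library for the member with the largest H93 difference in each role, the 5 largest differences in each comparison, calls against the majority and members with overlapping groups. They are given for all 47. Other lists name up to 2 genes by largest difference, and promoters were printed for the 4 largest H93 differences and the risen member with a window. Windows came from RefSeq (GRCh38.p14), and gene overlaps from GENCODE release 29 by Entrez identifier. Proteins were not used here. Alternatives were pseudocounts of 0.1 and 5, other filters and scalings, robust moderation, 6 libraries only, the replicate block, and leaving out each library. Python 3.11.15, pandas 2.3.3, numpy 2.4.6 and matplotlib 3.10.9 were used.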

Additional observations from a re-analysis of the deposited data

How the results depend on the processing

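The counts of members lower kept within 1.5 times of their reported value under every alternative run, and were 27 to 30 for H93 against DMSO, 15 to 19 for SAHA against DMSO and 24 to 27 for H93 against SAHA with 1 library left out. Members higher after H93 than after DMSO were 0 to 2 with 1 library left out (2 with all), lowest without DMSO replicate 2 and without H93 replicate 2. Members higher after H93 than after SAHA (1, NEK2) were 0 with no filter on low values, 0 under median-ratio rescaling, 0 under quantile normalization, 0 with only the 6 libraries compared, 2 at a mean FPKM of at least 5, and 0 to 2 with 1 library left out. The members' median log2 difference was -0.1198 under median-ratio rescaling for H93 against SAHA, and -0.1271 to -0.09243 with 1 library left out for H93 against DMSO. The cause of these shifts was not tested.

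The log2 difference changed sign, without passing either way, for BUB1 after SAHA under median-ratio rescaling (0.008071). Under quantile normalization it did so for UBE2C after H93 (-0.01497), for CDCA8 (0.006277), BUB1 (0.004746), BUB3 (0.003916) and ESPL1 (0.002574) after SAHA, and for CENPE in H93 against SAHA (-0.009073). With 1 library left out, values crossed 0 in H93 against DMSO for CDC25C (-0.05175 to 0.01654), NEK2 (-0.04702 to 0.0115), NDC80 (-0.008681 to 0.03766), NUF2 (-0.0101 to 0.08863), SPC25 (-0.04971 to 0.03949) and UBE2C (-0.01241 to 0.03883). They did so in SAHA against DMSO for CKS2 (-0.03583 to 0.005384), BUB1 (-0.006973 to 0.007139), NUF2 (-0.0344 to 0.06433) and SPC25 (-0.01201 to 0.0998). In H93 against SAHA they did so for CKAP2 (-0.04387 to 0.01918), INCENP (-0.05461 to 0.01373), CENPE (-0.001918 to 0.03352), NUF2 (-0.02254 to 0.05757) and SPC25 (-0.09339 to 0.01842).

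Same-numbered libraries did not deviate together over the genes tested (correlations of -0.0975 to 0.0355), so the numbers gave no sign of pairing. A weak shared effect could go unseen under the spread of single genes. With the replicate block, members lower and higher numbered 30 and 2 for H93 against DMSO, 19 and 6 for SAHA against DMSO, and 26 and 1 for H93 against SAHA, and all genes passing numbered 7986, 6649 and 3426 in these comparisons (8050, 6780 and 3629 without it). Absolute depth is unknown, so counting error could not be set apart from other spread.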
